A study of Homo sapiens with 10 samples.

Results

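The 5 genes examined here belong to the carcinoembryonic antigen-related cell adhesion molecule family: CEACAM1, CEACAM5, CEACAM6, CEACAM7 and CEACAM19. They were chosen by name as 5 of the 33551 rows of the count table, and that choice was made with their levels in these libraries known. Their differences between libraries are therefore given as a description. Calls from the fit over all genes are listed for them, but are not read as tests of these genes. CEACAM7 did not pass the filter on low counts, and the other 4 genes were among the 17978 genes fitted.

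The series profiled RNA from A549, an established human lung adenocarcinoma cell line. The 5 lines were wild type (WT), a line labelled as a knockout of ABCA3 (KO), and lines labelled with the ABCA3 variants L101P, E292V and E690K. ABCA3 encodes a lipid transporter of surfactant-storing lamellar bodies. Each line was sequenced untreated and after overnight transduction at a multiplicity of infection of 20 with a lentivirus pseudotyped with VSVG that carries ABCA3 joined to GFP, which gave 10 libraries. There was 1 library per line and treatment, and each genotype was 1 line, so a difference between genotypes and a difference between the lines that carry them cannot be told apart.

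CEACAM proteins belong to the immunoglobulin superfamily and bind one another, or themselves, on the surface of epithelial cells and leukocytes. CEACAM1 spans the membrane and can carry inhibitory tyrosine motifs in its cytoplasmic tail, whereas CEACAM5, CEACAM6 and CEACAM7 are held in the outer leaflet by a glycosylphosphatidylinositol (GPI) anchor. CEACAM5 is the carcinoembryonic antigen measured in blood as a tumour marker, and CEACAM6 is abundant in many adenocarcinomas of the lung and gut.

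In GENCODE release 29 on GRCh38 the 5 genes lie on chromosome 19. CEACAM7 (ENSG00000007306.14, minus strand, chr19:41673307-41706976), CEACAM5 (ENSG00000105388.15, plus strand, chr19:41708585-41729798) and CEACAM6 (ENSG00000086548.8, plus strand, chr19:41750977-41772208) stand side by side. The gap is 1.609 kb between CEACAM7 and CEACAM5 and 21.179 kb between CEACAM5 and CEACAM6. CEACAM1 (ENSG00000079385.21, minus strand, chr19:42507304-42561234) lies 735.096 kb beyond CEACAM6, and CEACAM19 (ENSG00000186567.12, plus strand, chr19:44662278-44684359) a further 2101.044 kb on.

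The stretch from 65 to 36 bases before the RefSeq transcript start is shown for the 4 genes with an entry in the RefSeq promoter table (GRCh38.p14), because it holds the motif that CEACAM5 and CEACAM6 share. Each run of 30 bases is written 5′ to 3′ on the strand of its gene. Capitals mark matches to CACGTG (an E-box, bound by USF factors), CACCC (bound by KLF factors) or GGGCGG (a GC box, bound by SP factors, here read on the other strand).
CEACAM5, plus strand, chr19:41708561-41708590: aaagaccaCACCCatgaccCACGTGatgct
CEACAM6, plus strand, chr19:41755465-41755494: cagagaccgCACCCatgaccCACGTGaccc
CEACAM7, minus strand, chr19:41688306-41688335: gcagagacccCACCCctggaccatgtgatc
CEACAM1, minus strand, chr19:42528517-42528546: tcctggacaaaccCCGCCCcagcacacatg
GENCODE models that begin farther upstream place 30 of these bases in an exon of CEACAM6 and 30 in an exon of CEACAM7, and 6 in the first exon of CEACAM5. The stretch of CEACAM1 lies in no annotated exon.

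Over the 200 bases before the start, searched on both strands, CACGTG was found in CEACAM5 and CEACAM6, beginning at positions -46 and -45, and not in CEACAM1 or CEACAM7. The same letters were in 5.48% of 34943 promoter windows of that length. CACCC was found in CEACAM5, CEACAM6 and CEACAM7 and in 48.0% of all windows. GGGCGG was found in CEACAM1 and in 40.0% of windows, TATAAA in CEACAM6 at position -139 and in 8.61%, and the AP-1 motif TGANTCA in none of the 4 and in 5.39%. The windows were alike as a whole: 75% of the 200 bases were identical after alignment between CEACAM5 and CEACAM6, 80.5% between each of these and CEACAM7, and 66.5% to 73.5% between CEACAM1 and the other 3. A match describes the letters only.

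The libraries held 59430095 to 96811421 counts, and scaling factors ranged from 0.972 to 1.03. The libraries labelled KO went against their labels: ABCA3 was at 601 CPM (counts scaled to the total of the library) in the one labelled untreated and at 25.8 CPM in the one labelled transduced, with 2842 and 4 counts on the EGFP row. In the other 4 lines EGFP counts were higher in the transduced library, and untreated libraries of these lines held 60 (L101P) to 5924 (WT). The untreated WT library, at 70.9 CPM, thus lay above transduced E292V (66.8 CPM), L101P (35.9 CPM) and E690K (18.0 CPM). Across lines the EGFP row therefore does not separate untreated from transduced libraries, and the source of these counts was not tested. The E690K pair differed little, with 1236 EGFP counts untreated and 1406 transduced. Its log2 ratio in CPM was 0.139, with a 95% interval for counting error of -0.019 to 0.297, which includes 0. For E690K the EGFP row therefore does not clearly separate the 2 libraries. The 5 epithelial marker genes summed to 5434 to 11462 CPM. Of 6 alveolar type 2 markers, which summed to 0.819 to 1.92 CPM, SFTPC, SFTPB, SFTPA1 and NKX2-1 were at 0 in at least 1 library. Of the 3 basal cell markers KRT5 and KRT14 were likewise at 0 in at least 1 library, while TP63 had 176 to 1178 counts (2.11 to 12.2 CPM) in every library and made up most of the sum of 2.44 to 12.4 CPM. For the labelled cell type, alveolar basal epithelial cells, the epithelial markers were thus abundant, 1 of the 3 basal markers was present throughout, and the alveolar type 2 markers were near 0.

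CEACAM6 was the most abundant of the 5 and spanned the widest range. It stood at 76.3 CPM in the untreated and 91.9 CPM in the transduced WT library. In the library labelled KO untreated it reached 513 CPM and in the one labelled KO transduced 1015 CPM. The L101P libraries held 230.0 CPM untreated and 963 CPM transduced. KO and L101P, with E690K, formed the high end of the series, and no library of theirs came down to WT. The E690K libraries held 689 CPM untreated and 623 CPM transduced, and the E292V libraries 38.3 CPM and 24.2 CPM. Both E292V values lay below both WT values, so the 10 libraries fell in the order E292V, WT and then L101P, E690K and KO, whose ranges overlapped one another. The highest library held 41.9 times the level of the lowest. By count CEACAM6 ranked 84th of all rows in the library labelled KO transduced and 7085th in the transduced E292V library.

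CEACAM5, the carcinoembryonic antigen itself, was far lower in every library. In WT it stood at 3.66 CPM untreated and 3.14 CPM transduced, and in E292V at 1.86 and 2.43 CPM. The E690K libraries held 18.5 and 16.2 CPM, and the libraries labelled KO 8.66 CPM untreated and 23.7 CPM transduced. All 4 of these libraries lay above WT. In L101P the untreated library held 2.05 CPM, below both WT libraries, and the transduced library 33.5 CPM, the highest of the series. These are 122 and 3248 counts, so the L101P line spanned almost the whole range of the gene (an 18.0-fold difference between the highest and the lowest library, which is the untreated E292V library).

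CEACAM1, the member with inhibitory signalling motifs, varied less. Its level was 6.50 CPM untreated and 4.97 CPM transduced in WT, 2.88 and 3.02 CPM in E292V, and 8.53 and 6.09 CPM in E690K. The libraries labelled KO held 9.02 and 12.1 CPM and those of L101P 9.36 and 19.2 CPM. The E292V libraries were again below all others, WT and E690K overlapped, and KO and L101P were the highest and overlapped. The highest library held 6.68 times the lowest. The antisense gene LIPE-AS1 spans the whole of CEACAM1 and had 261 to 505 counts per library, against 227 to 1861 for CEACAM1. Whether strand was used in counting is not given in the sources used here, so reads of this pair may not be told apart.

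CEACAM19, another transmembrane member, was the steadiest of the group. It lay between 14.1 and 27.1 CPM, a 1.92-fold range. The E292V libraries were the lowest (15.4 and 14.1 CPM untreated and transduced), the E690K libraries the highest (23.4 and 27.1 CPM), and WT, KO and L101P overlapped between 19.4 and 22.5 CPM. Its gene body shares 1306 bases with PVR, a nectin-like receptor on the same strand with 13919 to 24090 counts per library, and is spanned by an antisense gene, AC243964.2, with 123 to 260. In each of the 4 genes that passed the filter both E292V libraries lay below both WT libraries, as they did in 19.2% of all genes fitted. Nothing is read from that count, since the genes were chosen with these levels known.

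CEACAM7, known from the surface of the colon, was at the edge of detection. It had 0 counts in 6 libraries, which allows a level of up to 0.0810 to 0.129 CPM in them (upper end of a 95% Wilson interval on read pairs). The others were the libraries labelled KO transduced with 10 counts, L101P transduced with 17, and E690K with 6 untreated and 5 transduced. The highest of these is 0.176 CPM. The 4 libraries with counts were also the 4 with the highest levels of CEACAM5, and no difference in CEACAM7 was tested.

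**Figure D1:**
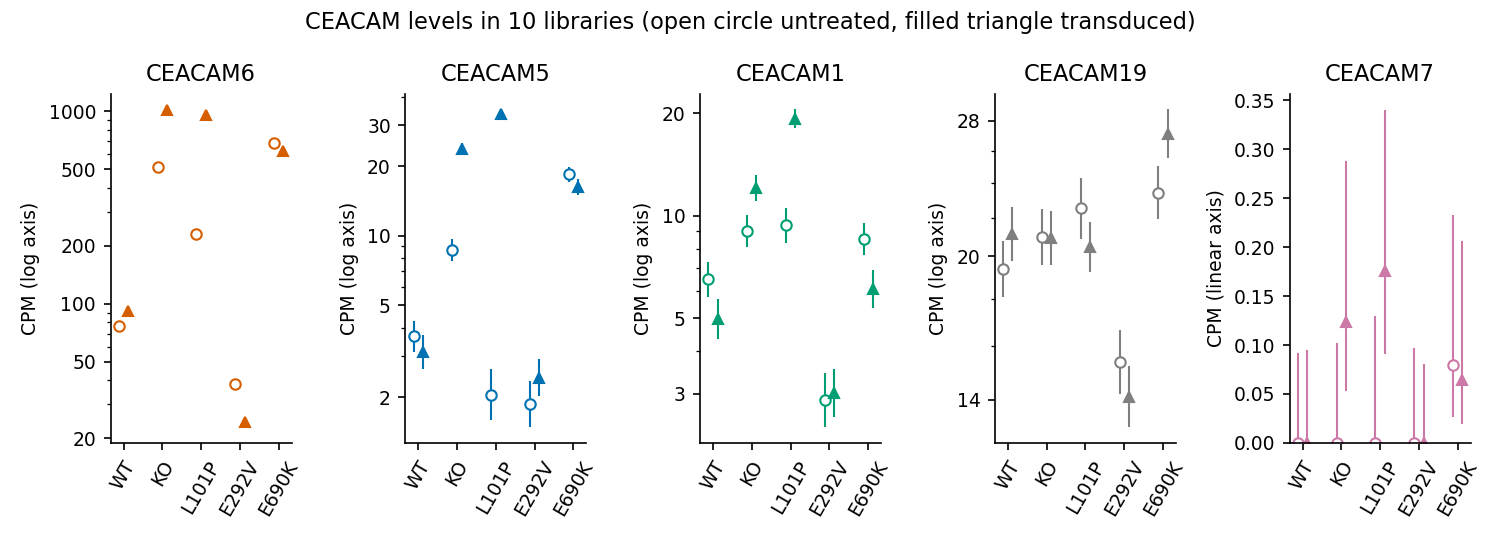
Level of each CEACAM gene in CPM (log axis for the first 4 genes, linear axis for CEACAM7) in the untreated (open circles) and transduced (filled triangles) library of each line, with bars for 95% Wilson intervals that cover counting error only. CEACAM6 runs from 24.2 CPM in transduced E292V to 1015 CPM in the library labelled KO transduced, while CEACAM19 stays between 14.1 and 27.1 CPM.

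Levels of different genes were compared per kilobase of annotated exon. On that scale CEACAM6 was at 7.94 to 332 CPM per kb (median 122) and CEACAM5 at 0.556 to 10.0 CPM per kb (median 1.84). CEACAM6 made up 66.6% to 96.1% of the summed level of the 5 genes, with a median of 93.3%, and exceeded CEACAM5 by 10.97 to 123 times. How reads that fit several genes were counted is not given in the sources used here. Of the distinct 100-base stretches in CEACAM5 transcripts 12.6% also occur in another gene, and all of these in AC243967.1, an overlapping protein-coding annotation whose own row had 0 counts in all 10 libraries. The share was 1.73% for CEACAM6, 0.469% for CEACAM1, 0.398% for CEACAM19 and 0% for CEACAM7. CEACAM5 and CEACAM6 shared no stretch of that length with each other, and 40 of 50 bases.

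The design asks how each edited line compares with WT, and these contrasts came from 1 edgeR model with additive terms for line and vector, in which all 4 contrasts share the WT libraries. The spread in that fit is the departure of the paired libraries from additivity, and where nothing says that libraries came from separate cultures it may be technical. CEACAM6 was higher than WT by a log2 fold change of 3.15 ± 0.46 (SE) in KO, 2.74 ± 0.46 in L101P and 3.05 ± 0.46 in E690K, and differed by -1.37 ± 0.44 in E292V. In single libraries this is 6.72 and 11.04 times the matching WT library for KO untreated and transduced, 3.01 and 10.5 times for L101P, 9.03 and 6.78 times for E690K, and 0.502 and 0.264 times for E292V. The 3 high lines differed little from one another beside these errors: the fitted log2 difference was -0.41 ± 0.43 for L101P minus KO, -0.10 ± 0.43 for E690K minus KO and 0.31 ± 0.44 for E690K minus L101P. Between E690K and E292V, 2 lines with a single substitution each, it was 4.41 ± 0.49.

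CEACAM5 had log2 fold changes against WT of 2.04 ± 0.71 (SE) in KO, 1.98 ± 0.74 in L101P, 2.42 ± 0.71 in E690K and -0.77 ± 0.75 in E292V. The errors were wider than for CEACAM6. The L101P value averages opposite directions: the untreated L101P library was at 0.560 times and the transduced one at 10.7 times the matching WT level. In E690K both libraries lay near 5 times WT, at 5.04 and 5.17 times.

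CEACAM1 had log2 fold changes of 0.89 ± 0.29 (SE) in KO, 1.33 ± 0.29 in L101P, 0.40 ± 0.29 in E690K and -0.98 ± 0.30 in E292V. Among the lines with raised CEACAM6, KO lay between the others in CEACAM1: the fitted log2 difference was 0.45 ± 0.28 for L101P minus KO, -0.49 ± 0.29 for E690K minus KO and -0.93 ± 0.29 for E690K minus L101P. CEACAM19 differed from WT by 0.08 ± 0.11 in KO, 0.13 ± 0.11 in L101P, 0.37 ± 0.11 in E690K and -0.46 ± 0.11 in E292V.

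**Figure D2:**
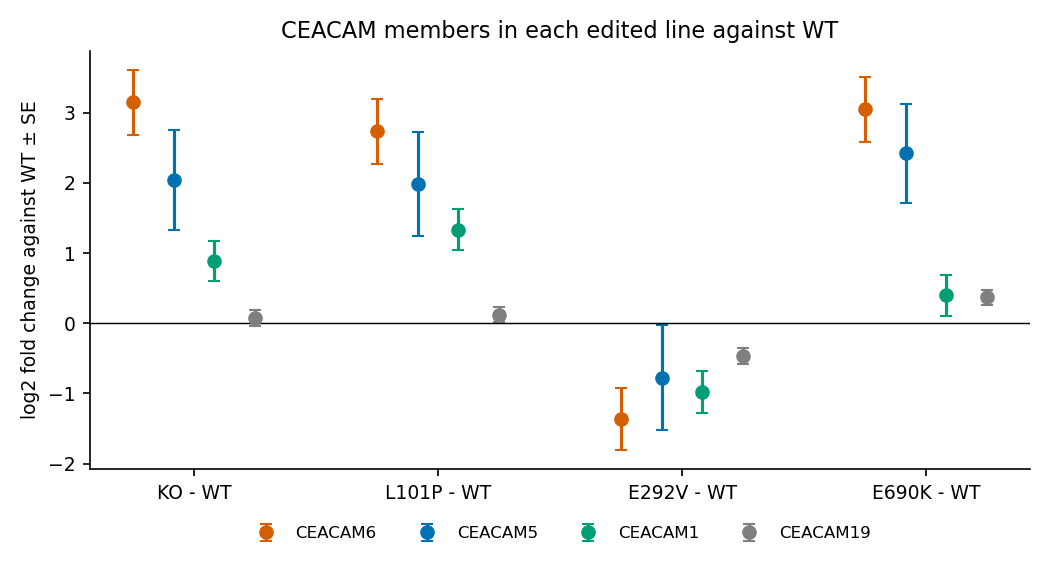
Log2 fold change against WT (points) with its standard error (bars) from the edgeR model, for the 4 CEACAM genes that passed the low-count filter. CEACAM6 is near 3 in KO, L101P and E690K, and all 4 genes are below 0 in E292V.

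At an edgeR adjusted p under 0.05 over all genes, 1 of the 4 fitted members was called in KO (CEACAM6), where 1.8% of all genes were called (0.807% higher). In L101P 2 of 4 were called (CEACAM6 and CEACAM1), against 3.94% of all genes (2.33% higher). In E690K 1 of 4 was called (CEACAM6), against 5.38% (3.05% higher), and in E292V 0 of 4, against 1.05%. At an unadjusted edgeR p under 0.05 there were 3 of the 4 members in E292V, against 1857 of all 17978 genes. DESeq2 called 2 of the 4 in E292V, and its share over all genes is not given here. Nothing is read from these shares, since the genes were chosen on the same levels. The median log2 fold change of the 4 members was 1.47 in KO, 1.66 in L101P, 1.41 in E690K and -0.88 in E292V, and that of all genes was between -0.02 and 0.00. Without the L101P pair of libraries 9 member calls were made in the other 3 contrasts, against 2 in the same contrasts with it. The related genes listed further below had 79 calls without that pair and 37 with it, in the same contrasts. Without the E690K pair CEACAM1 was not called in L101P, at a log2 fold change of 1.30.

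The marker sums also moved between these lines. The epithelial sum was highest in the transduced L101P library (11462 CPM), next in the library labelled KO transduced (8590 CPM) and lowest in E292V (6042 and 5434 CPM). Most of it was KRT8 (3721 to 7719 CPM) and KRT18 (1608 to 3239 CPM). KRT19 was also lowest in E292V, at 80.8 and 62.4 CPM. Other markers of the list did not follow the sum. CDH1 was highest in untreated E292V (36.4 CPM), and EPCAM was at 15.8 and 13.3 CPM in E292V against 10.7 and 7.73 CPM in WT. The sum of 4 fibroblast markers was 77.2 and 121 CPM in the E292V libraries and 16.0 to 47.5 CPM in the other 8, with DCN and PDGFRA at 0 in some libraries and COL1A1 alone reaching 118 CPM. The basal cell sum was highest in transduced L101P at 12.4 CPM. Their part in the CEACAM differences was not tested. In bulk RNA a change in the number of cells that express a gene and a change in RNA per cell cannot be told apart.

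The second comparison asks what the vector changed within a line. The fitted vector effect over the 5 lines was a log2 fold change of 0.52 ± 0.28 (SE) for CEACAM6, 1.02 ± 0.47 for CEACAM5, 0.16 ± 0.19 for CEACAM1 and 0.04 ± 0.07 for CEACAM19. By edgeR 0 of the 4 members were called, against 0% of all genes. At an unadjusted p under 0.05 there were 0 of the 4 members and 1236 genes in all, and DESeq2 called 0 of the 4. These averages rest on single pairs. Without the L101P pair the effect was 0.39 for CEACAM5, 0.14 for CEACAM6 and -0.08 for CEACAM1. With the labels of the KO pair exchanged, whose ABCA3 and EGFP levels go against them, it was 0.31, 0.09 and -0.02.

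Single pairs differed by much more than this average, in L101P above all. From the untreated to the transduced L101P library CEACAM5 was 16.3-fold higher in CPM, a log2 change of 4.03 (95% counting interval 3.66 to 4.42), and CEACAM6 by 2.07 (2.03 to 2.10). CEACAM1 differed by 1.04 across the same pair and CEACAM19 by -0.14. The L101P pair also held the smallest and the largest of the 10 libraries, and its EGFP counts went from 60 to 3474.

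Across the pair labelled KO, CEACAM5 differed by a log2 change of 1.45 (1.27 to 1.64) and CEACAM6 by 0.98 (0.96 to 1.01). CEACAM1 differed by 0.42 and CEACAM19 by -0.01. The higher CEACAM levels were in the library with 4 EGFP counts and 25.8 CPM of ABCA3. If the labels of this pair were exchanged, each of these changes would have the opposite sign.

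For CEACAM6 and CEACAM5 the changes in the other 3 pairs were smaller in size than in the L101P and KO pairs. CEACAM6 differed by 0.27 (0.20 to 0.34) in WT, -0.66 (-0.77 to -0.55) in E292V and -0.15 (-0.17 to -0.12) in E690K. CEACAM5 differed by -0.22 (-0.57 to 0.13) in WT, 0.38 (-0.06 to 0.81) in E292V and -0.19 (-0.34 to -0.03) in E690K. CEACAM1 differed by -0.39 in WT, 0.07 in E292V and -0.49 in E690K, and CEACAM19 by -0.14 to 0.21 over the 5 pairs. The intervals cover counting error alone, and with 1 library at each end of a pair no change within a line has a replicate check.

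**Figure D3:**
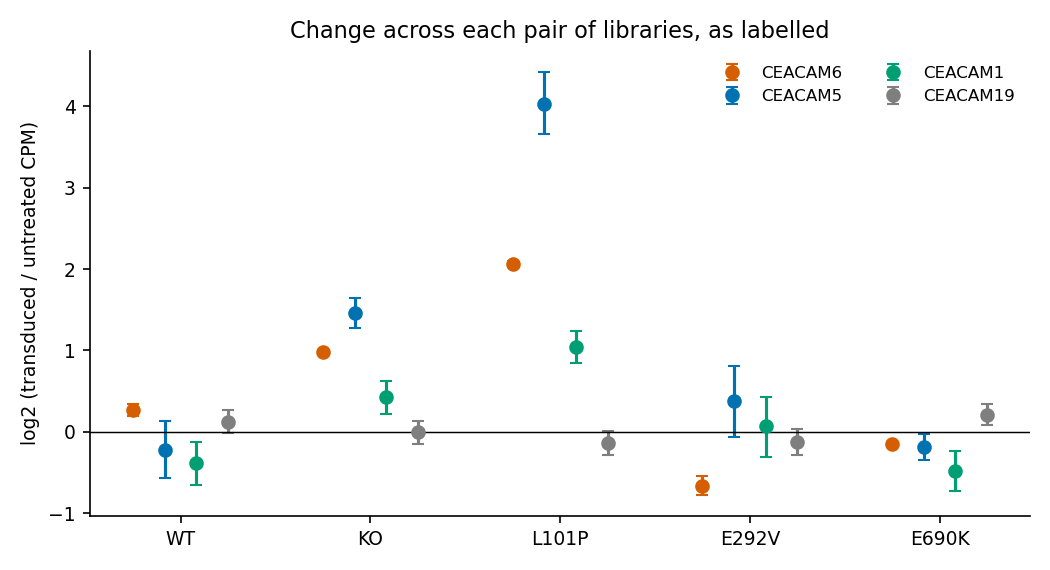
Log2 ratio of the transduced to the untreated library (CPM) within each line, as labelled, with 95% counting intervals. L101P reaches 4.03 for CEACAM5 and 2.07 for CEACAM6, KO reaches 1.45 and 0.98, and E292V and E690K lie below 0 for CEACAM6.

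CEACAM5 and CEACAM6 ran together over the 10 libraries, with Pearson's r = 0.89 and Spearman's rho = 0.88 on log2 CPM. CEACAM1 and CEACAM6 gave r = 0.87, CEACAM1 and CEACAM5 r = 0.76, and CEACAM6 and CEACAM19 r = 0.80. The points are not independent, because the 10 libraries come in pairs from 5 lines, and over the 5 line means CEACAM5 and CEACAM6 gave r = 0.98. The pair broke step at the untreated L101P library, where CEACAM6 was at 3.01 times the WT level and CEACAM5 at 0.560 times, so that CEACAM6 had 112 times the counts of CEACAM5. In the transduced E292V library it had 10.0 times.

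**Figure D4:**
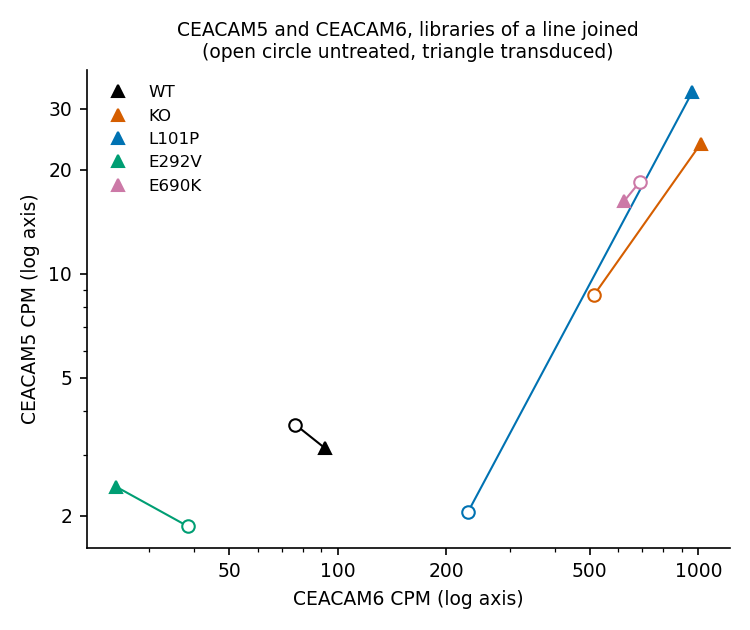
CEACAM5 against CEACAM6 in CPM (both axes log) in 10 libraries, with the untreated (open circle) and transduced (triangle) library of a line joined. The untreated L101P library has 230.0 CPM of CEACAM6 with 2.05 CPM of CEACAM5, and the transduced one joins the KO and E690K libraries at the upper right.

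Likeness to each member was measured as Pearson's r of log2 CPM over the 10 libraries among 11969 genes. The nearest to CEACAM6 were SYT13 (r = 0.994), GALNT5 (0.991) and C1orf116 (0.987). SYT13 went from 16.4 to 92.9 CPM and C1orf116 from 5.19 to 47.6 CPM, both with transduced E292V as the lowest library. For CEACAM5 the nearest were CAVIN3 (0.969), TUSC3 (0.960) and KIFC1 (0.948), for CEACAM1 DAZAP2 (0.987), FAM107B (0.984) and HID1 (0.977), and for CEACAM19 UNC13D (0.967), BRD2 (0.965) and GREB1L (0.961). DAZAP2 and TUSC3 kept within 308 to 385 CPM and 52.2 to 61.3 CPM, so likeness here is of pattern and not of size. CEACAM6 ranked 74th in likeness to CEACAM5, and CEACAM5 ranked 386th in likeness to CEACAM6.

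The genes beside the members were examined next, to see whether the differences extended along chromosome 19. Within 250 kb of a member lay 47 rows outside the family, of which 29 were tested. None of the 10 tested neighbours nearest to CEACAM5, CEACAM6 or CEACAM7 was called by edgeR in any of the 4 line contrasts. By edgeR 3.04% of the tests of all genes were called. DESeq2 called 0 of the 40 tests of these neighbours. At an unadjusted edgeR p under 0.05 there were 7 of the 40. By that measure there were 2532 of all 17978 genes in KO, 3292 in L101P, 3474 in E690K and 1857 in E292V. The log2 fold changes of the 10 neighbours ran from -1.26 to 1.50. The median of the 7 nearest to CEACAM6 was -0.11 for KO, -0.12 for L101P, -0.23 for E690K and -0.09 for E292V.

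Of the 8 tested neighbours of CEACAM1, TMEM145 was lower in E690K (log2 fold change -0.92 ± 0.23 SE, edgeR adjusted p = 0.0393), and none was called in the other 3 lines. That is 3.13% of 32 tests, against 3.04% of the tests of all genes. Of the 11 nearest to CEACAM19, 1 was called in KO, 4 in L101P, 2 in E690K and 2 in E292V, which is 20.5% of 44 tests. In E690K the 2 were APOC1, lower, and PVR, higher, the gene that overlaps CEACAM19 on the same strand. The apolipoprotein genes APOE and APOC1 were among those called. APOE, a lipid carrier, was lower in L101P (-1.50 ± 0.23, adjusted p = 0.00486) and higher in E292V (1.17 ± 0.22, adjusted p = 0.0227). APOC1 fell in L101P (-1.09, adjusted p = 0.00865) and E690K (-1.45, adjusted p = 9.1e-04) and rose in E292V (0.86, adjusted p = 0.0435). ZNF229, a zinc-finger gene, was lower in L101P (-1.27 ± 0.26, adjusted p = 0.0187). Over all 29 neighbours 10 calls were made in the 4 contrasts, and with the labels of the KO pair exchanged 4.

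**Figure D5:**
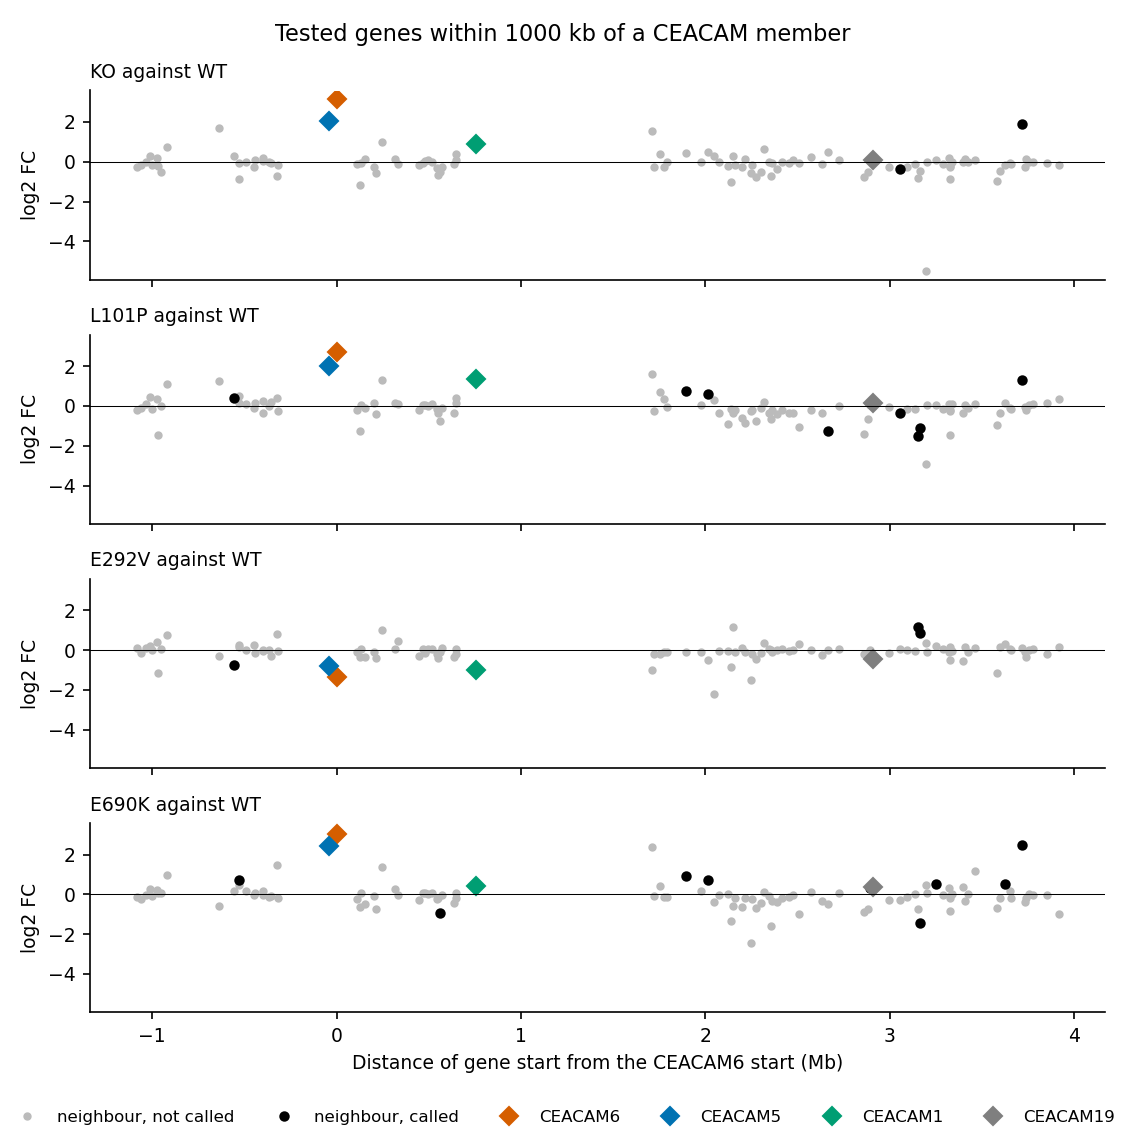
Log2 fold change against WT of each tested gene within 1000 kb of a CEACAM member (grey, not called; black, called at an edgeR adjusted p under 0.05) and of 4 members (diamonds), by distance of the gene start from the CEACAM6 start in megabases. No black point lies at the CEACAM5 and CEACAM6 position in any line, and APOE and APOC1 lie near 3 megabases. Of 22 tested genes nearest to CEACAM7, CYP2S1 was called higher in L101P and lower in E292V, and AXL higher in E690K. Each call is 4.55% of the 22, against 3.94%, 1.05% and 5.38% of all genes in these lines in that order.

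The rest of the family had few counts. Of 29 other CEACAM and PSG genes (PSG genes encode pregnancy-specific glycoproteins) 17 were in the table, 10 reached 10 counts in a library, and none exceeded 86 counts. CEACAM3, a granulocyte receptor that lies 24.229 kb beyond CEACAM6, had 7 and 6 counts in WT, 37 and 57 in KO, 17 and 70 in L101P, 56 and 33 in E690K and 8 and 1 in E292V. That is 0.0435% to 0.265% of the counts of CEACAM6 in the same library. CEACAM8, another granulocyte protein, had 0 counts in WT and E292V and at most 27, in transduced L101P. The 8 others with at least 10 counts in a library peaked at 30 (CEACAM16), 14 (CEACAM18), 14 (CEACAM20), 65 (PSG1), 10 (PSG2), 86 (PSG4), 52 (PSG5) and 36 (PSG6). By edgeR 0 of 7 tested genes were called in any line contrast, where 3.04% of the tests of all genes were called. At an unadjusted edgeR p under 0.05 there were 9 of 28 tests. By that measure there were 2532 of all 17978 genes in KO, 3292 in L101P, 3474 in E690K and 1857 in E292V. DESeq2 called 2 of the 28, and its share over all genes is not given here. The median log2 fold change of the 7 genes was 2.03 in KO, 1.70 in L101P, 2.15 in E690K and -0.05 in E292V. With CEACAM8 and PSG6, which had at most 3 counts in WT, set at the bound that 3 counts per library give, or left out where E292V also had at most 3, it was 1.94 in KO, 1.70 in L101P, 1.53 in E690K and -0.56 in E292V.

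Genes related to the CEACAM genes by role were read from 5 further lists, chosen with earlier results of these data known. Over the 4 line contrasts together 3.04% of the tests of all genes were called, from 1.05% in E292V to 5.38% in E690K. At an unadjusted edgeR p under 0.05 there were 2532 of all 17978 genes in KO and 1857 in E292V. The DESeq2 share over all genes is not given here. Of 29 tested signalling and binding partners, with 10 calls in 116 tests (8.62%), 4 were called in L101P (3 higher, 1 lower) and 6 in E690K (all higher), and 0 in KO and E292V, where 9 and 6 had an unadjusted p under 0.05 and DESeq2 called 5 and 2. The list median was 0.01 in KO, 0.11 in L101P, 0.10 in E690K and 0.05 in E292V. EGFR, the epidermal growth factor receptor, rose in E690K (0.78 ± 0.11 SE, edgeR adjusted p = 0.00145). ITGB1, the integrin beta 1 chain, rose in L101P (0.44 ± 0.09, adjusted p = 0.0166) and in E690K (0.43 ± 0.09, adjusted p = 0.0136). TGFBR1, a receptor of transforming growth factor beta, rose by 0.45 in L101P (adjusted p = 0.0433) and 0.48 in E690K (adjusted p = 0.0268), and FLNA, an actin crosslinker that binds the CEACAM1 tail, by 0.46 in E690K (adjusted p = 0.0131).

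The machinery that builds the GPI anchor of CEACAM5, CEACAM6 and CEACAM7 is the next list, with 2 calls in 112 tests (1.79%, against 3.04% for all genes). Of 28 tested genes DPM3, a subunit of dolichol-phosphate mannose synthase, was lower in L101P (-0.70 ± 0.16 SE, edgeR adjusted p = 0.0287) and in E690K (-0.96 ± 0.16, adjusted p = 0.00429), and 0 were called in KO and E292V (3 in each at an unadjusted p under 0.05, 0 by DESeq2). The list median was between -0.09 and 0.07 in the 4 contrasts. Of 29 other GPI-anchored surface proteins, with 18 calls in 116 tests (15.5%), 2 were higher in KO, 6 higher and 1 lower in L101P, 1 higher and 1 lower in E292V and 7 higher in E690K, with medians of 0.03, 0.03, -0.11 and 0.07 in that order. CD55, which restrains complement, rose by 1.08 ± 0.25 in L101P (adjusted p = 0.0301) and 1.17 ± 0.24 in E690K (adjusted p = 0.0160). NT5E, which makes adenosine at the cell surface, rose by 0.71 and 1.16 in these lines (adjusted p = 0.0142 and 4.9e-04), and MSLN, mesothelin, by 0.77 and 1.02 (adjusted p = 0.0190 and 0.00270). GPC6, a glypican, had 152 and 325 counts in E292V and at most 8 in any other library (5.47 ± 0.82 in E292V, adjusted p = 0.0121).

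Epithelial adhesion genes had 22 calls in 104 tests (21.2%, against 3.04% for all genes). Of 26 tested, 4 were higher and 1 lower in KO, 7 higher and 1 lower in L101P, 8 higher in E690K and 1 lower in E292V, with medians of 0.22, 0.16, 0.30 and 0.03. CDH17, a cadherin of the gut epithelium, was at 33.3 and 37.1 CPM in WT, 61.7 and 80.1 CPM in KO, 66.5 and 130 CPM in L101P, 14.8 and 10.1 CPM in E292V, and 60.4 and 55.9 CPM in E690K. Its lines did not overlap WT, with E292V below and the other 3 above, as for CEACAM6. It was called in L101P (1.50 ± 0.24 SE, edgeR adjusted p = 0.00624) and in E292V (-1.49 ± 0.25, adjusted p = 0.0150). ITGB4, the integrin chain of hemidesmosomes, rose in KO (0.63 ± 0.14, adjusted p = 0.0454), L101P (1.06 ± 0.14, adjusted p = 0.00220) and E690K (1.20 ± 0.14, adjusted p = 5.2e-04). EPCAM, the epithelial cell adhesion molecule, rose in KO (1.25 ± 0.17, adjusted p = 0.00434) and E690K (0.71 ± 0.17, adjusted p = 0.0327), and L1CAM in L101P (0.62 ± 0.12, adjusted p = 0.0145) and E690K (1.10 ± 0.12, adjusted p = 3.2e-04).

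Of 25 tested transcription factors that have been tied to CEACAM promoters, with 6 calls in 100 tests (6%), 1 was called in KO, 1 in L101P and 4 in E690K, all higher, and 0 in E292V (3 at an unadjusted p under 0.05, 1 by DESeq2). The list median was 0.05 in KO, 0.17 in L101P, 0.05 in E690K and -0.01 in E292V. KLF4, a Krüppel-like factor of differentiating epithelium, rose by 0.48 ± 0.11 SE in KO (edgeR adjusted p = 0.0431), 0.66 ± 0.11 in L101P (adjusted p = 0.00623) and 0.73 ± 0.11 in E690K (adjusted p = 0.00185). It stood at 24.4 and 23.6 CPM in WT, 31.6 to 40.0 CPM in the 6 libraries of those lines and 21.6 and 19.6 CPM in E292V. The other 3 called in E690K were ATF3 (0.89, adjusted p = 0.0137), TFAP2A (0.37, adjusted p = 0.0361) and SMAD3 (0.29, adjusted p = 0.0425). USF1 and USF2, which are known to bind the E-box letters printed above for CEACAM5 and CEACAM6, were not called in any line: USF1 stayed between 38.6 and 45.8 CPM and USF2 between 154 and 179 CPM. In the vector effect none of these 5 lists or of the rest of the family had a gene called by edgeR, against 0% of all genes. At an unadjusted p under 0.05 there were 6 of 29 partners, 0 of 28 GPI synthesis genes and 7 of 29 other GPI-anchored proteins. By the same measure there were 11 of 26 epithelial adhesion genes, 5 of 25 factors and 0 of 7 family genes, against 1236 of all 17978 genes. DESeq2 called 2 other GPI-anchored proteins and 1 epithelial adhesion gene there.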

How the data were processed

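RNA-seq of 10 A549 libraries (5 lines, untreated and transduced) was analysed from the whole-number counts per gene that the authors deposited, 1 column per library. The submitters' processing notes name featureCounts, Subread, edgeR, limma and GRCh38, and the role of each and the handling of strand and shared reads are not given in the sources used here. All 10 columns were used, and 0 columns came from other samples. Of the values from 1 to 10, 81.4% were even, so 95% Wilson and exact counting intervals were computed on count divided by 2, as for read pairs. They cover counting error only.

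Counts were fitted with edgeR 4.0.16 in R 4.3.3: filterByExpr (17978 of 33551 rows kept), TMM scaling, glmQLFit and glmQLFTest on line plus vector (4 residual degrees of freedom), and Benjamini-Hochberg adjustment over all genes with a threshold of 0.05. The line is thus the block of the vector effect. The standard error is the log2 fold change divided by the square root of F. The script was tested on simulated data. Alternatives were DESeq2 1.42.0 (Wald test and size factors), no filter, halved counts, leaving out each line, exchanged KO labels, other lengths for levels per kilobase and a window of 1000 kb.

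The members and gene lists were chosen with earlier results of these data known. Named genes were the members, family genes with at least 10 counts in a library, up to 4 called genes per list by size of change, and the 3 genes most like each member. USF1, USF2, LIPE-AS1, AC243967.1, AC243964.2, PVR, CYP2S1 and AXL were added after their values were seen. GENCODE 29 matched 98.7% of row names, and promoter sequences came from RefSeq for 4 of 5 members.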

Additional observations from a re-analysis of the deposited data

Results flagged for a closer look

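CEACAM6, CEACAM5 and CEACAM1 differed in opposite directions in different lines between the untreated and the transduced library. CEACAM6 differed by a log2 ratio of 2.07 in L101P and -0.66 in E292V. CEACAM5 differed by 4.03 in L101P and -0.19 in E690K, and CEACAM1 by 1.04 in L101P and -0.49 in E690K. With 1 library at each end of a pair, these differences between lines were not tested. In each of the 4 fitted members the 5 changes were also searched for a single value far from the others (gap over range above 0.71), and 0 of the 4 sets had one.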

How the results depend on the processing

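Over the 4 line contrasts 4 member calls were made of 16 possible. Without the low-count filter there were 12, with the DESeq2 Wald test 8, and leaving out 1 pair of libraries gave 2 to 9 in the remaining 3 contrasts. The share of all genes called under each alternative is not given here, so these shifts are not read as particular to the members. For the vector effect 0 members were called, and 2 (CEACAM5 and CEACAM6) without the filter. Neighbours had 10 calls, 4 with the KO labels exchanged, 22 with a window of 1000 kb and 2 to 12 when a pair was left out. The related lists had 58 calls, 123 without the filter, 32 with the KO labels exchanged and 15 to 79 when a pair was left out. Part of the fall on leaving out a pair is the loss of its own contrast, and the cause of the other shifts was not tested. Without the E690K pair, for example, neighbours had 2 calls against 7 in the same contrasts. Of 128 alternative values of the members' log2 fold changes in the line contrasts 0 changed sign. Of 40 in the vector effect 3 did, none of them called: CEACAM1 (0.16) was -0.08 without the L101P pair and -0.02 with the KO labels exchanged, and CEACAM19 (0.04) was -0.01 without the E690K pair. CEACAM5 (1.02) moved to 0.39 without the L101P pair and 0.31 with the KO labels exchanged, and CEACAM6 (0.52) to 0.14 and 0.09. Over all 168 values 21 gained a call and 1 lost it. The vector effect was paired by line, since the line served as the block. The labels give no replicate numbers for any further pairing. CEACAM7 and the rest of the family had few counts in most libraries, and how large a difference could be detected in them was not tested.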
